A study of Mus musculus with 18 samples.

Results

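The IL-4 response of bone marrow-derived macrophages (BMM) from Nur77-knockout (Nur77-KO) mice was read from 6 arrays, 3 of IL-4-treated and 3 of unstimulated cells, out of 18 arrays in the series. Members were the probes with 1 gene symbol detected (detection p-value below 0.05) on 1 or more of these 6 arrays, which left 16378 of 45281 probes. They stand for 10785 of 19057 genes, each given by its probe with the highest mean. Bone marrow of C57BL/6 mice, WT or lacking Nur77 in all cells of the animal, was grown into BMM in medium conditioned by L929 cells. The treated groups used here received IL-4 at 50 ng/ml for 8 h or lipopolysaccharide (LPS) at 100 ng/ml for 8 h, and the unstimulated groups carry a time of 0 h, with 3 arrays in each group and both genotypes in each state. No untreated array was taken at 8 h, so each response holds any change over 8 h of culture as well as that to the stimulus. The sources give 3 mice of each genotype per batch of marrow and do not tie arrays to mice, so the p-values reflect the spread among arrays alone, which may be technical. Values are the deposited log2 intensities, on which a difference of 1 is a factor of 2, and a gene was called changed at an adjusted p under 0.05 in limma's moderated test over all 10785 genes. All differences below are log2 fold changes with the standard error (SE) of the fit unless a fold is named, and n = 3 arrays per group throughout.

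IL-4 binds a receptor of the IL-4 receptor alpha chain and a second chain, and the Janus kinases attached to them phosphorylate STAT6, which enters the nucleus and switches on the genes of alternative, or M2, activation. That programme is known for arginine use by Arg1, for the secreted proteins Chil3 and Retnla, for the mannose receptor Mrc1 and for chemokines that draw eosinophils and monocytes. Feedback inhibitors of the SOCS family, CISH among them, are induced by signals through STAT proteins. Nur77, encoded by Nr4a1, is an orphan nuclear receptor of the NR4A family and an early response gene in stimulated macrophages.

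No array of the 18 detected the single Nr4a1 probe, and the knockout could not be read from its own transcript. The macrophage markers Adgre1 (F4/80) and Csf1r were highest of the 6 arrays on Nur77-KO IL-4 replicate 1, at 13.80 and 12.95. On the other 5 arrays they lay between 13.00 and 13.48 and between 11.48 and 11.79. Detected probes numbered 15098 to 16283 per unstimulated and 13883 to 15369 per IL-4 array. The array labelled Nur77-KO IL-4 replicate 1 stood apart from the other two. It differed from them by a root mean square of 0.71 and 0.72 over all genes, against 0.30 between replicates 2 and 3, and its nearest array was a WT array with IL-4 (0.55). Eif2s3y, a Y-linked gene, was at 4.59 there and between 8.91 and 9.68 on the other 5 arrays. Xist, the transcript of the inactive X chromosome, was at 11.42 there and between 9.49 and 9.89 on the other 5, while the WT arrays with or without IL-4 lay between 10.70 and 11.44. The labels give neither the sex nor the mouse behind an array, so whether this array came from another animal or sex than the rest of its group was not tested, and with it the 3 IL-4 arrays may not be like replicates. Npy was at 4.61 there, against 9.88 to 10.33 on the other 5 and 4.56 to 5.35 on those WT arrays. The matrix gene Col1a1 was at 5.57, against 8.39 to 8.88 and, on those WT arrays, 4.71 to 6.48. The mean level of 18 measured stromal cell markers was 6.02 on that array, 8.97 and 8.86 on replicates 2 and 3, and 9.21 to 9.29 without stimulation. In bulk RNA fewer cells of a type and less RNA per cell cannot be told apart. Other genes on it were near the other Nur77-KO arrays: Pou6f1 was at 4.65 there and 4.68 to 4.94 on the other 5, against 5.63 to 6.69 on the WT arrays with or without IL-4. The single genes of this comparison of arrays were picked after their values were seen. The part of that array in each result was not tested beyond leaving it out. Losses of a call without it are given for the named genes, in some cases only as a count of arrays left out singly. Calls gained without it are mostly not given. Ccl9 and Srm were among the list members that passed the test as higher only without that array. Fabp5 was among those that passed as lower only without it. Counts per list without it are given for some lists only.

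**Figure D1:**
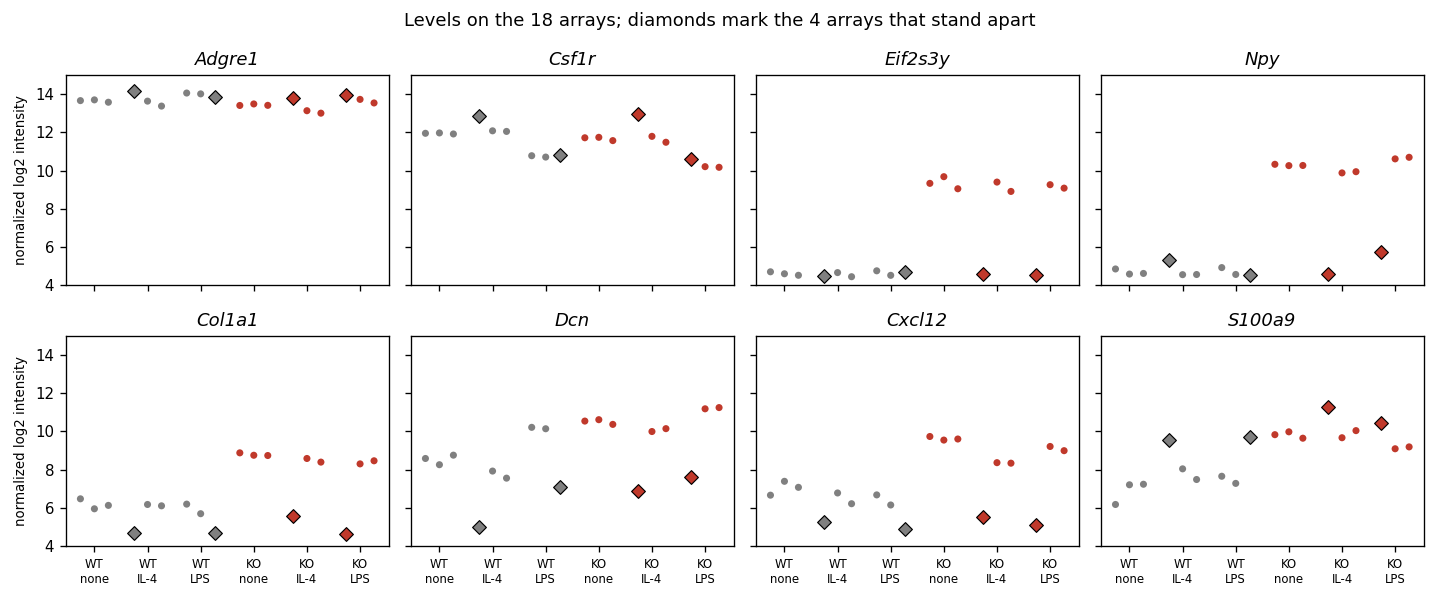
Normalized log2 intensity of 8 genes on the 18 arrays, WT in grey and Nur77-KO in red. Each panel is 1 gene and each point 1 array, grouped by genotype and stimulus, and diamonds mark 4 stimulated arrays that stand apart, among them Nur77-KO IL-4 replicate 1 at 5.57 for Col1a1 and 4.59 for Eif2s3y.

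With IL-4, 416 genes rose (3.86% of those tested) and 343 fell (3.18%). These shares over all genes are the background to each count of list members below. The arrays of the treated and unstimulated groups did not overlap for 3172 genes, 29.4% of all, and these included all 759 called genes. The rises were the larger changes: 62 of the 416 were at least 4-fold and 26 at least 8-fold, against 10 and 0 of the 343. Of the genes that rose, 27 were detected on no unstimulated and on all 3 IL-4 arrays, and 18 of those that fell went the other way. The median difference over all genes was -0.01. Slide 4, the single slide that holds both groups, has 1 array of each and allows no test of its own. Without replicate 1 of the IL-4 group 359 genes rose and 299 fell, 313 and 231 of them shared with the full set. Leaving out 1 unstimulated array lowered the counts to 264 and 178 (without replicate 1), 260 and 186 (replicate 2) or 262 and 167 (replicate 3). With slide as a fixed block, 251 rose and 184 fell, and the calls of 21 named genes were lost (adjusted p 0.0521 to 0.264): Zranb3, Ptpn6, Stat2, Ccl7, Fosl2, Egr1, Slc2a1, Ppan, Mybbp1a, Ddx21, Ccrl2, Irf1, Fcgr1, Gpr65, P2ry13, Adam8, Alox5ap, Gclm, Xbp1, Cd14 and Pecam1. Rises made up 54.8% of the calls, but 41.0% of 105 calls when arrays were scaled to their medians, a scaling that moved the median of all genes to -0.38. Under it 752 of the 759 genes had the same sign, and 45 named genes lost their call (adjusted p 0.0503 to 0.931), among them Jak2, Dok2, Il13ra1, Socs2, Mrc1, Ppargc1b, Tnfaip3, Tlr13, Fcgr2b, Tfrc, Cat, Ptgir, Ltb4r1 and Hpgds.

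**Figure D2:**
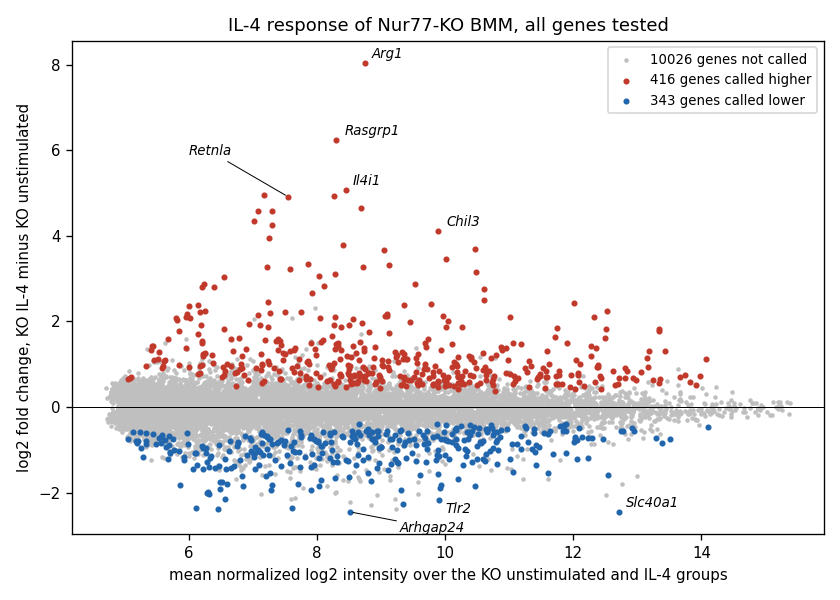
Log2 fold change of Nur77-KO BMM with IL-4 over unstimulated Nur77-KO BMM (y axis) against the mean log2 intensity of both groups (x axis), 1 point per gene for 10785 genes. The 416 genes that rose (red) reach 8.04 at Arg1, while the 343 that fell (blue) reach -2.45 at Arhgap24.

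Arg1, the arginase that turns arginine into ornithine, changed most. It was at 4.62, 4.57 and 5.01 without stimulation, where no array detected it, and at 11.46, 13.31 and 13.54 with IL-4. The rise was at least 170-fold against the lowest detectable signal (log2 fold change 8.04, SE 0.52, adjusted p = 1.78e-07), and the other detected probe of Arg1 rose by 6.32. Replicate 1 was the lowest IL-4 array for this gene and still lay 6.45 above the highest unstimulated one. Retnla, the secreted protein RELM-alpha, went from 5.03, 5.02 and 5.24, again not detected, to 9.75, 10.15 and 10.12, at least 25.1-fold (4.91, SE 0.35, adjusted p = 3.89e-07). Chil3, the chitinase-like lectin Ym1, went from 8.08, 7.97 and 7.46 to 11.96, 12.02 and 11.85 (4.11, SE 0.44, adjusted p = 2.35e-05). Its neighbour Chil4, or Ym2, rose by 4.66 (SE 0.40, adjusted p = 2.42e-06). The pair is near-identical in sequence, so a probe for one can also bind the transcript of the other. Cish, the feedback inhibitor of cytokine receptors, was at 5.55, 5.59 and 6.28 and then at 11.00, 10.44 and 10.78, a 30.7-fold rise (SE 0.22, adjusted p = 1.74e-09). For each of these genes the groups did not overlap, as the rule for naming genes required and as held for all 759 called genes.

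The promoters of 4 of these genes and of Pdcd1lg2, described with the costimulatory genes, are shown because each holds a sequence of the kind that STAT proteins bind. Motifs searched were TTCNNNNGAA, the spacing that STAT6 prefers, and TTCNNNGAA, the spacing shared by most STAT proteins. Both read the same on either strand. Sequences are RefSeq windows of the GRCm38.p6 build from 250 bases before to 50 after the annotated start, in the direction of the gene, and capitals mark the matches. The windows are chr16:48842359-48842658 (plus strand) for Retnla, chr3:106167515-106167814 (minus) for Chil3, chr3:106219430-106219729 (minus) for Chil4, chr9:107296409-107296708 (plus) for Cish and chr19:29410669-29410968 (plus) for Pdcd1lg2.
Retnla: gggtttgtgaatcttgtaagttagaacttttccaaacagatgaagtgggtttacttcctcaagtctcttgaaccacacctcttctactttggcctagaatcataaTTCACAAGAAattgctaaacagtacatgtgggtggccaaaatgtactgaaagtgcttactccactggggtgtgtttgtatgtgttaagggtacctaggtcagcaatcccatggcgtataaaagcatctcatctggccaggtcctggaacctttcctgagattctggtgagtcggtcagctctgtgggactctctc
Pdcd1lg2: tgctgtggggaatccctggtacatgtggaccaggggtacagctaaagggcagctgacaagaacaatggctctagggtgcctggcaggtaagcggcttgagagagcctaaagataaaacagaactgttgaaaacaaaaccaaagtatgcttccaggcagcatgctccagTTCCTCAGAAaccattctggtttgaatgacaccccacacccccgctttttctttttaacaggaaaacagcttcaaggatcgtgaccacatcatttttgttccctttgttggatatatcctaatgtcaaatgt
Chil3: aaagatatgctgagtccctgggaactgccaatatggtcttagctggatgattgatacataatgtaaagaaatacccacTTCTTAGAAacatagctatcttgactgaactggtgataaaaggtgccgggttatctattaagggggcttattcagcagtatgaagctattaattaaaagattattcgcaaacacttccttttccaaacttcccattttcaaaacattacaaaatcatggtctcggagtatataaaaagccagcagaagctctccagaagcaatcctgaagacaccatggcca
Chil4: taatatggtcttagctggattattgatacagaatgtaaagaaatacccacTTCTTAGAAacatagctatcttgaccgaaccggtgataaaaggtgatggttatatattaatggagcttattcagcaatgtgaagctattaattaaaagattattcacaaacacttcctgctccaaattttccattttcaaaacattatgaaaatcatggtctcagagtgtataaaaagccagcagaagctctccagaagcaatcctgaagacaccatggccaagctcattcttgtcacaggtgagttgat
Cish: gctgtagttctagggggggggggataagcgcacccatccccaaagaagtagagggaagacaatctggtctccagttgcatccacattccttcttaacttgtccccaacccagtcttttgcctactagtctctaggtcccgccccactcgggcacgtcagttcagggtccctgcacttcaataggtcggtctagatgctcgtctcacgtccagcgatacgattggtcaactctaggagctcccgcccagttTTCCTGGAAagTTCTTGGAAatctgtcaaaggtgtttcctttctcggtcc
Retnla held the wider spacing from base -145 to -136, counted from the start, and Pdcd1lg2 from -82 to -73. Chil3 and Chil4 held the same 9 letters, TTCTTAGAA, from -172 and from -200. Cish held the narrower spacing at 2 places, from 1 to 9 and from 12 to 20. Among all 32851 promoters of this length 6.95% held the wider and 8.30% the narrower motif, and 223 held both. Of 108 named genes 79 had a promoter entry, and 17 of these held either motif. By gene, 32 of 328 that rose and had an entry held the wider motif (9.76%), as did 15 of 268 that fell (5.60%) and 595 of all 8769 (6.79%). The narrower motif stood in 31 of the 328 (9.45%), 29 of the 268 (10.8%) and 737 of the 8769 (8.40%). These shares are a description of these windows and were not tested.

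Other leading rises were spread over several functions. Rasgrp1, an exchange factor that activates Ras, rose at least 66.4-fold by its main probe (6.23, SE 0.30, adjusted p = 5e-09), while its other detected probe rose by 1.19. Il4i1, a secreted amino acid oxidase named for its induction by IL-4, was at 5.85, 6.02 and 5.89 and then at 11.02, 10.95 and 11.00, a 33.5-fold rise (SE 0.41, adjusted p = 1.4e-06) with almost no spread between the IL-4 arrays. Rnase2a, an eosinophil-type ribonuclease, rose at least 19.4-fold, the tight-junction protein gene Cldn11 at least 18.6-fold and Scimp, a membrane adaptor of immune signalling, at least 16.1-fold. Apol7c, of the apolipoprotein L family, rose at least 14.3-fold, with its IL-4 arrays at 10.87, 8.74 and 7.99. Flt1, a receptor for vascular endothelial growth factor, rose 15.4-fold (3.95, SE 0.79, adjusted p = 0.00563), Mcf2l 13.7-fold and Prps1, which makes the phosphoribosyl precursor of nucleotides, 12.9-fold. The spread between IL-4 arrays was wide for Cldn11 (8.05, 10.34 and 10.35) and narrow for Mcf2l (10.21, 10.33 and 10.34). A further gene among the leading 15, with a placeholder name, is counted only.

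**Figure D3:**
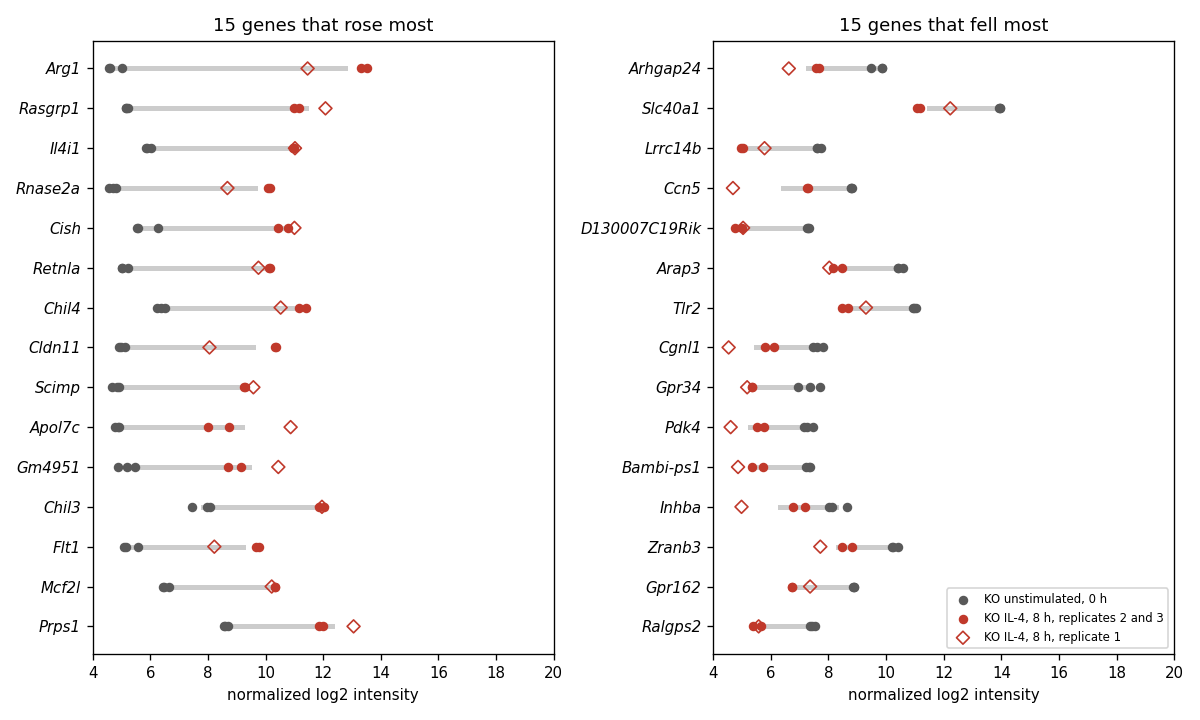
Log2 intensity by array of the 15 genes that rose most (left) and the 15 that fell most (right), unstimulated Nur77-KO arrays in grey and IL-4 arrays in red, with an open diamond for IL-4 replicate 1. Grey bars join the group means, and the 3 grey points lie apart from the 3 red ones in every row, as the rule for choosing these genes requires.

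The largest falls were smaller. Arhgap24, an inactivator of Rac, was at 9.86, 9.49 and 9.86 and then at 6.62, 7.57 and 7.67 (-2.45, SE 0.31, adjusted p = 0.000127). Slc40a1, the iron exporter ferroportin, was at 13.94, 13.94 and 13.92 and then at 12.23, 11.06 and 11.18 (-2.44, SE 0.35, adjusted p = 0.000385). Tlr2, the receptor for bacterial lipoproteins, was at 11.05, 10.94 and 10.97 and then at 9.30, 8.67 and 8.48 (-2.17, SE 0.23, adjusted p = 2.24e-05). All 3 IL-4 arrays were lower than every unstimulated array for each of them, as the rule for naming genes required. Arap3 fell by 2.26, Gpr34, a receptor for lysophosphatidylserine, at least 3.49-fold and Pdk4, a kinase that shuts off pyruvate dehydrogenase, by 2.00. Lrrc14b (-2.39), Cgnl1 (-2.14), Bambi-ps1 (-1.99), Gpr162 (-1.93) and Ralgps2 (-1.91) also fell. For Cgnl1 and Ralgps2 the other detected probe read -0.15 and -0.17. The calls of 3 more of the 15 were lost with 1 array left out. Ccn5, a secreted matrix protein, was at 4.69 on IL-4 replicate 1 and at 7.27 and 7.31 on the others, and without replicate 1 its difference was -1.50 (adjusted p = 0.063). Inhba, the activin A subunit, was at 4.98, 7.18 and 6.78 (-1.28 without replicate 1, adjusted p = 0.129), and Zranb3, a DNA-remodelling enzyme, was at 7.72, 8.49 and 8.81 (-1.64 without replicate 1, adjusted p = 0.0831). Leaving out any 1 unstimulated array ended the calls of Ccn5, Inhba and Zranb3 as well, with adjusted p up to 0.0734, 0.133 and 0.0831 over all arrays left out. The last of the 15 has a placeholder name and is counted only. Ccn5 and Inhba were lowest on replicate 1, the array with low stromal markers, whose part in these falls was not tested.

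Of 20 measured genes of the IL-4 receptor and its proximal signalling, 2 rose and 2 fell. Il4ra, the IL-4 receptor alpha chain, was at 5.49, 5.47 and 5.74 and then at 7.54, 5.80 and 6.03 (0.89, SE 0.50, adjusted p = 0.376), a difference set mainly by replicate 1. Stat6 itself was at 8.33, 8.29 and 8.37 and then at 8.18, 7.91 and 8.16 (-0.25, SE 0.17, adjusted p = 0.48). Neither passed the test. Jak2, a kinase of cytokine receptors, rose from 8.00 ± 0.03 to 10.13 ± 0.18 (mean ± SD; 2.13, SE 0.16, adjusted p = 4.32e-07), and Dok2, an adaptor that restrains Ras signalling, rose by 1.98 (SE 0.35, adjusted p = 0.00196). Il13ra1, the chain that pairs with Il4ra outside lymphocytes, fell from 8.12 ± 0.02 to 6.75 ± 0.38 (-1.37, SE 0.23, adjusted p = 0.00119). Ptpn6, the phosphatase SHP-1, fell by 0.53 (adjusted p = 0.0427), a call lost without any 1 of the unstimulated arrays or of IL-4 replicates 2 and 3 (adjusted p up to 0.161). The list's median was 0.13, and -0.26 under median scaling.

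Of 12 measured STAT, SOCS and PIAS genes, 4 rose and 1 fell. Beside Cish, Socs2 went from 8.05, 8.35 and 8.46 to 12.46, 11.35 and 11.39, a 10.9-fold rise (SE 0.73, adjusted p = 0.00861), and Socs1, which blocks Janus kinases, from not detected to 7.66, 7.34 and 7.01, at least 3.93-fold (adjusted p = 2.69e-06). Both were higher on all 3 IL-4 arrays, as was every gene called higher. Stat2 rose by 0.99 (adjusted p = 0.04), a call lost without any 1 unstimulated array or IL-4 replicate 1 or 3 (adjusted p up to 0.159). Socs3 (-0.21, adjusted p = 0.48), Socs4 (-0.54, adjusted p = 0.26), Socs5 (0.47, adjusted p = 0.18) and Stat3 (-0.18, adjusted p = 0.69) did not pass the test, and Socs6 fell by 0.76 (adjusted p = 0.0236, and up to 0.11 without any 1 array but IL-4 replicate 1). The median of this list was 0.13, and -0.33 under median scaling.

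Of 24 measured alternative activation markers, 12 rose and 0 fell, and 20 lay above 0, with a median of 0.72 against -0.01 over all genes. Arg1, Retnla, Chil3, Chil4 and Flt1 were among them, as was Pdcd1lg2. Mgl2, a galactose-binding lectin of macrophages, went from 7.13, 7.15 and 6.99 to 10.73, 10.13 and 10.22, a 9.66-fold rise (3.27, SE 0.55, adjusted p = 0.00143). Mrc1, the mannose receptor, went from 12.43, 12.34 and 12.51 to 13.95, 14.45 and 14.36, a 3.54-fold rise (SE 0.26, adjusted p = 0.000311). The other members that rose were the lectin Clec10a (1.92), the kinase gene Matk (1.87), Tgm2, a transglutaminase (1.37), and the growth factor Igf1 (0.64). The calls of Clec10a and Igf1 were each lost with 3 arrays left out singly, replicate 1 of the IL-4 group among them (adjusted p up to 0.106 and 0.0875). The lipoxygenase gene Alox15 (0.33, adjusted p = 0.68), Cd163 (0.41, adjusted p = 0.63) and Il10 (0.20, adjusted p = 0.805) did not pass the test. Under median scaling the list's median was 0.53.

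Chemokine ligands rose in 4 of 19 cases and fell in 0 (median 0.52, and 0.11 under median scaling). Ccl24, eotaxin-2, which attracts eosinophils, was not detected without stimulation and was at 8.05, 7.76 and 7.60 with IL-4, at least 5.43-fold higher (adjusted p = 6.03e-07). The monocyte attractants Ccl12 and Ccl8 rose 12.6-fold (3.66, SE 0.34, adjusted p = 6.11e-06) and 10.0-fold (3.33, SE 0.31, adjusted p = 7.44e-06). Ccl7 went from 10.65, 10.93 and 10.79 to 11.84, 13.77 and 14.07 (2.44, SE 0.55, adjusted p = 0.0117). Replicate 1 was the lowest array for Ccl7 and Ccl12, and without it Ccl7 rose by 3.13 (adjusted p = 0.000998), while without unstimulated replicate 1 or IL-4 replicate 2 or 3 the call was lost (adjusted p up to 0.0604). Ccl2, close kin of these 3 and open to shared binding of probes, read 1.70 (adjusted p = 0.25).

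Of 18 measured transcription factors of the IL-4 programme, 6 rose and 0 fell (median 0.74, and 0.32 under median scaling). Batf3 went from 6.15, 6.21 and 5.53 to 9.67, 8.91 and 8.99, a 9.36-fold rise (SE 0.21, adjusted p = 2.13e-07). Egr2, an early-response zinc-finger factor, went from 9.05, 8.70 and 8.98 to 12.06, 12.01 and 12.13, an 8.91-fold rise (SE 0.28, adjusted p = 4.29e-06) with the IL-4 arrays within 0.12 of each other. Irf4, a factor of M2 polarization, went from not detected to 6.74, 7.29 and 7.50, at least 3.52-fold (adjusted p = 0.000416). The coactivator Ppargc1b rose by 1.55 (adjusted p = 0.000436), Bhlhe40 by 1.47 (adjusted p = 0.00063) and Etv3 by 0.89 (adjusted p = 0.033, and up to 0.105 with any 1 array left out). Pparg (0.58, adjusted p = 0.32), Klf4 (0.56, adjusted p = 0.62) and Myc (0.19, adjusted p = 0.71) did not pass.

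Among the NR4A family, Nr4a3 was not detected on any of the 6 arrays, and Nr4a2 was at 5.09, 5.34 and 5.23 and then at 4.67, 5.26 and 5.86, detected on 1 array (0.04, adjusted p = 0.968). Of 15 measured NR4A and immediate early genes 6 rose and 0 fell (median 0.33, and 0.12 under median scaling). They were Ier3, a survival gene of early responses (2.25, SE 0.21, adjusted p = 5.08e-06), Fosl2 (1.33, adjusted p = 0.0108, and 0.119 with slide as a fixed block), Egr1 (1.33, adjusted p = 0.0047, and 0.107 with that block), Zfp36, which destabilizes cytokine mRNA (0.95, adjusted p = 0.0137), Atf3 (0.84) and Junb (0.71). The second probe of Fosl2 read -0.01. The call of Zfp36 was lost without unstimulated replicate 2 or 3 or IL-4 replicate 1 (adjusted p up to 0.063), that of Junb without unstimulated replicate 1 or 2 or IL-4 replicate 1 (up to 0.0843) and that of Atf3 without unstimulated replicate 2 or 3 (up to 0.0698). Fos (-0.33, adjusted p = 0.71) and Jun (0.46, adjusted p = 0.28) did not pass.

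Of 17 measured genes of MHC class II antigen presentation and costimulation 6 rose and 0 fell (median 0.46, and 0.11 under median scaling). Cd40, the receptor for CD40 ligand on T cells, went from 6.23, 5.97 and 6.37 to 10.04, 9.17 and 9.41, a 10.2-fold rise (SE 0.22, adjusted p = 1.78e-07). Pdcd1lg2, the inhibitory ligand PD-L2, was not detected without stimulation and was at 8.05, 7.55 and 7.42 with IL-4, at least 4.97-fold higher (adjusted p = 3.89e-07). Cd86 was at 8.03, 8.21 and 8.07 and then at 12.13, 10.52 and 10.26 (2.87, SE 0.47, adjusted p = 0.00115), and Cd274, or PD-L1, rose by 2.11 (SE 0.39, adjusted p = 0.00329). Replicate 1 was the highest array for all 4. Cd83 (1.86) and H2-DMa, which helps load peptides (1.01), rose too, the latter call being lost without unstimulated replicate 1 or 2 (adjusted p up to 0.0728). Of the other costimulatory members Cd80 (-0.17, adjusted p = 0.81), Icosl (0.38, adjusted p = 0.64) and Cd72 (0.58, adjusted p = 0.40) did not pass. The class II genes H2-Aa (-0.59, adjusted p = 0.45), H2-Ab1 (-0.12, adjusted p = 0.82), H2-Eb1 (-0.18, adjusted p = 0.65), Cd74 (0.08, adjusted p = 0.86) and their regulator Ciita (0.25, adjusted p = 0.86) did not pass.

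Of 18 measured Toll-like and other pattern recognition receptors, 6 fell and 1 rose, where 3.18% of all genes fell and 3.86% rose. Without IL-4 replicate 1, 5 fell and 2 rose. The list's median was -0.23, and -0.65 under median scaling. Beside Tlr2, the ribosomal RNA sensor Tlr13 fell from 11.05 ± 0.18 to 9.36 ± 0.40 (-1.69, SE 0.19, adjusted p = 3.4e-05). Clec4d and Clec4e, paired lectins for mycobacterial glycolipid, fell by 1.60 (adjusted p = 0.00187) and 2.63-fold (adjusted p = 0.00555), and Tlr7 fell by 0.61 (adjusted p = 0.0296, and up to 0.108 without any 1 array but IL-4 replicate 3). Cd14, the LPS coreceptor, was at 10.89, 10.94 and 11.02 and then at 10.58, 9.01 and 9.22 (-1.35, adjusted p = 0.0259; -1.83 and 0.000813 without replicate 1, and up to 0.12 without an unstimulated array or IL-4 replicate 2 or 3). Clec7a, the beta-glucan receptor dectin-1, rose by 1.10 (adjusted p = 0.013, and up to 0.0605 without unstimulated replicate 1 or 3). Tlr4 read 0.48 (adjusted p = 0.056) and did not pass.

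Of 15 measured inflammatory cytokine genes and their regulators 2 rose and 2 fell, and 2 rose and 3 fell without IL-4 replicate 1. Nfkbiz, a nuclear inhibitor of kappa B protein, fell by 1.70 (SE 0.27, adjusted p = 0.001) and Ccrl2, a chemerin-binding receptor, by 1.29 (adjusted p = 0.00221, and 0.055 with slide as a fixed block). Tnfaip3, or A20, which ends signalling to NF-kappa B, rose by 1.04 (SE 0.15, adjusted p = 0.000297) and the cytokine gene Osm by 0.79 (adjusted p = 0.00171), although the second probe of Osm read -0.0042. Tnf (-0.59, adjusted p = 0.27) and Il1b (0.72, adjusted p = 0.369) did not pass. Of 19 interferon-stimulated genes 2 rose, Usp18 (1.00, adjusted p = 0.0194) and Irf1 (0.84, adjusted p = 0.0345). Both calls were lost without replicate 1 (adjusted p = 0.0579 and 0.122), on which the mean level of the list was 8.46 against 6.93 and 6.88 on the other IL-4 arrays and 7.09 to 7.27 without stimulation. They were also lost without any 1 unstimulated array (adjusted p up to 0.072 and 0.122). The list's median was 0.31 with and -0.05 without replicate 1, and without it 0 of the 19 genes rose and 1 fell.

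**Figure D4:**
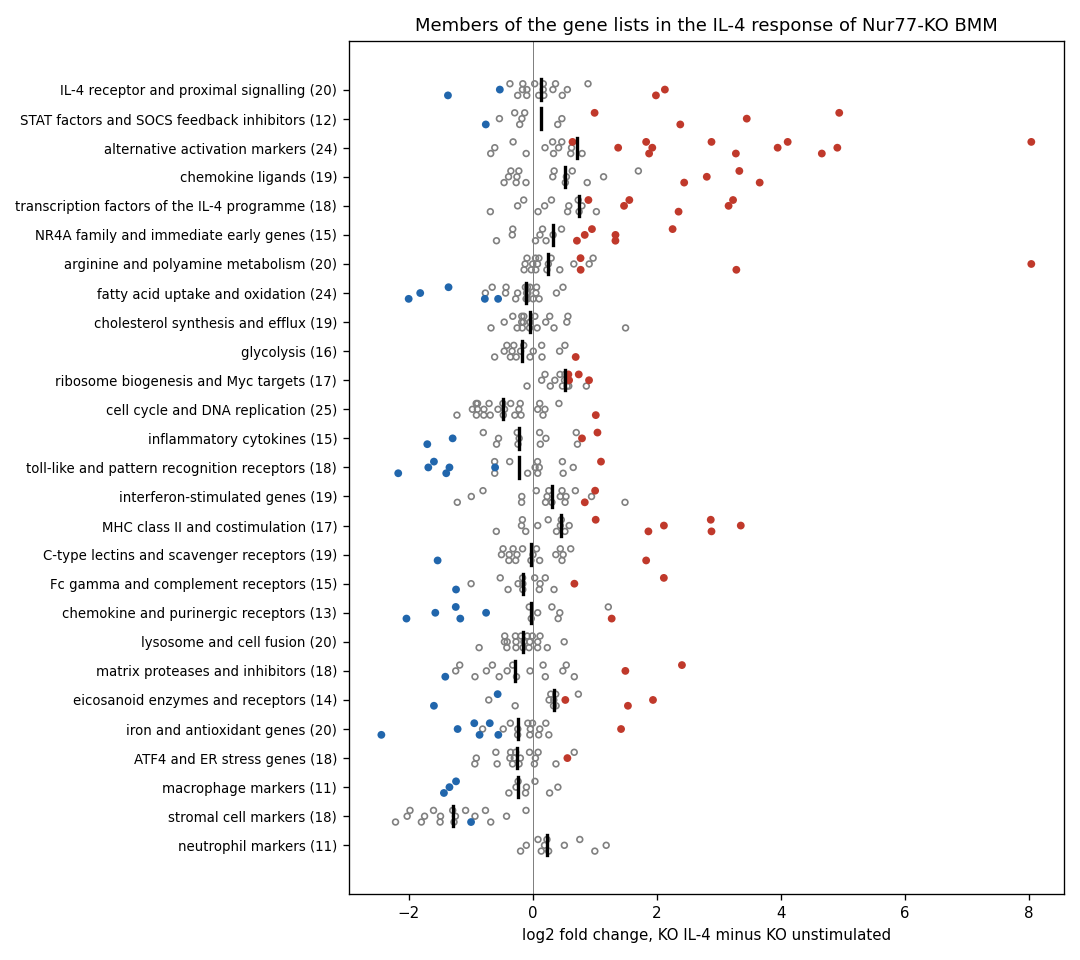
Log2 fold change with IL-4 of each measured member (points) of the gene lists with at least 10 measured genes, whose numbers stand in parentheses. Filled points rose (red) or fell (blue) in the test, open points did not pass, and the black line is the list's median, 0.72 for the alternative activation markers and -1.28 for the stromal cell markers.

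Of 20 measured genes of arginine and polyamine metabolism 4 rose, where 3.86% of all genes did, and 0 fell (median 0.24, and -0.16 under median scaling). Beside Arg1 these were Slc7a2, the arginine importer (3.28, SE 0.25, adjusted p = 5.42e-07), Odc1, which makes putrescine (0.77, adjusted p = 0.0053), and the cystine importer Slc7a11 (0.77, adjusted p = 0.014, and up to 0.0786 without unstimulated or IL-4 replicate 2). The other probes of Slc7a2 rose by 0.41 to 1.74. Nos2, which competes with arginase for arginine, read -0.13 (adjusted p = 0.83). Of 24 genes of fatty acid uptake and oxidation 0 rose and 5 fell, where 3.18% of all genes fell. Beside Pdk4, the thioesterase gene Acot1 fell at least 2.36-fold (-1.82, adjusted p = 0.000726), the fatty acid carrier Fabp3 by 1.36 (adjusted p = 0.0107, and 0.0501 without unstimulated replicate 1), the lipid droplet protein Plin2 by 0.78 (adjusted p = 0.0271, and up to 0.103 without any 1 array but IL-4 replicate 3) and the lysosomal lipase Lipa by 0.56 (adjusted p = 0.022, and up to 0.0946 without any 1 array but IL-4 replicate 1). The oxidation enzymes Acadm (0.10), Hadha (-0.08) and Cpt2 (-0.10) did not pass.

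Of 16 glycolysis genes 1 rose, the glucose transporter Slc2a1 (0.69, adjusted p = 0.0336, and up to 0.137 without any 1 array but IL-4 replicate 1). Of 19 genes of cholesterol synthesis and efflux and of 20 lysosome and fusion genes 0 were called in limma's test. The cholesterol list's median was -0.05 with and 0.22 without IL-4 replicate 1. Without the 4 stimulated arrays that stand apart, 5 cholesterol genes rose and 1 fell. In that fit 1 lysosome and fusion gene rose and 5 fell. Of 17 ribosome biogenesis genes 16 lay above 0 (median 0.52, and 0.05 under median scaling) and 4 rose, Ppan (0.90), Bop1 (0.74), Mybbp1a (0.58) and Ddx21 (0.57). The calls of Ppan and Bop1 were each lost with 3 of the 6 arrays left out singly (adjusted p up to 0.0723 and 0.0789), and those of Mybbp1a and Ddx21 with each of the 6 (up to 0.137 and 0.152). Of 25 cell cycle genes 1 rose, the cyclin-dependent kinase inhibitor Cdkn1a, at 12.97, 11.70 and 11.73 against 11.12 ± 0.11 (1.01, adjusted p = 0.0187, and up to 0.0795 without unstimulated replicate 2 or 3). The median of the cell cycle list was -0.48 with replicate 1 and -0.05 without it, and its mean level on that array was 7.29 against 8.24 and 8.36.

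Surface receptors and secreted enzymes changed gene by gene. Fcgr2b, the inhibitory Fc gamma receptor, rose from 11.27 ± 0.08 to 13.38 ± 0.11 (2.11, SE 0.16, adjusted p = 6.13e-07). The activating receptor Fcgr1 fell from 9.10, 9.02 and 9.11 to 8.84, 7.28 and 7.38 (-1.24, adjusted p = 0.0316; -1.74 and 0.000356 without replicate 1, and up to 0.138 without any unstimulated array or IL-4 replicate 2 or 3). Fcgr3 rose by 0.67 (adjusted p = 0.0206, and up to 0.0771 without an unstimulated array or IL-4 replicate 1). In all, 2 of 15 Fc and complement receptor genes rose and 1 fell, and 1 rose and 1 fell without IL-4 replicate 1. Of 13 chemokine and purinergic receptors 5 fell and 1 rose: Gpr34, Cxcr4, the receptor for CXCL12 (-1.57, SE 0.21, adjusted p = 0.000193), P2ry13 (-1.24, adjusted p = 0.0232), Cx3cr1 and Adora3 (-0.75) fell, and the proton-sensing receptor Gpr65 rose by 1.27 (adjusted p = 0.0467). The calls of P2ry13, Gpr65 and Adora3 were each lost with 5 of the 6 arrays left out singly (adjusted p up to 0.0985, 0.169 and 0.106). Without IL-4 replicate 1 that of P2ry13 was kept. Stab1, a scavenger receptor, fell by 1.54 (adjusted p = 0.00545).

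Iron and antioxidant genes fell in 6 of 20 cases and rose in 1, where 3.18% of all genes fell and 3.86% rose. Their median was -0.24, and -0.52 under median scaling. Tfrc, the transferrin receptor that imports iron, rose from 11.57 ± 0.07 to 12.99 ± 0.07 (1.42, SE 0.14, adjusted p = 7.66e-06), opposite in sign to the exporter Slc40a1. Cat, catalase, fell by 1.21 (adjusted p = 0.00168), Gclm, of glutathione synthesis, by 0.95 (adjusted p = 0.00681, and 0.0574 with slide as a fixed block), and Gstm1, Hmox1 and Srxn1 by 0.86, 0.70 and 0.56. The calls of these last 3 were lost with 2, 4 and 5 of the 6 arrays left out singly (adjusted p up to 0.0587, 0.0868 and 0.137). Of 14 eicosanoid genes 3 rose and 2 fell. The prostacyclin receptor Ptgir rose by 1.94 (SE 0.25, adjusted p = 0.000125), the leukotriene B4 receptor Ltb4r1 by 1.53 (adjusted p = 0.0013) and the phospholipase gene Pla2g15 by 0.52 (up to 0.102 without any 1 array but IL-4 replicate 2), while Hpgds, a prostaglandin D synthase, fell by 1.60 (SE 0.13, adjusted p = 1.68e-06) and Alox5ap, which feeds 5-lipoxygenase, by 0.57 (adjusted p = 0.0104, and 0.13 with slide as a fixed block). Among matrix proteases and inhibitors 2 of 18 rose, the coagulation factor F10 (2.40, SE 0.16, adjusted p = 2.13e-07) and Adam8 (1.49, adjusted p = 0.00461, and 0.0521 with slide as a fixed block), and the transglutaminase F13a1 fell by 1.41 (SE 0.20, adjusted p = 0.000297). Xbp1, a factor of the unfolded protein response, rose by 0.56 (adjusted p = 0.014, and up to 0.0758 without unstimulated replicate 1 or 2) as the single call among 18 ATF4 and endoplasmic reticulum stress genes.

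Markers of cell types were read the same way. Of 11 macrophage markers 3 fell, Cd33 (-1.43, adjusted p = 0.00708), Cd14 and Fcgr1, while Adgre1 (-0.12, adjusted p = 0.82) and Csf1r (0.40, adjusted p = 0.52) did not pass. All 18 stromal markers lay below 0 (median -1.28, and -0.36 without replicate 1), with wide errors. The 1 called was Tagln, an actin-binding protein of smooth muscle (at least 1.67-fold lower, adjusted p = 0.0234). Its call was lost without any 1 array but IL-4 replicate 3 (adjusted p up to 0.0941), and 0 stromal markers were called without IL-4 replicate 1. Of 11 neutrophil markers 0 were called, and their mean level was 8.26 on IL-4 replicate 1 against 6.97 to 7.15 on the other 5 arrays. Dendritic cell, lymphocyte and mast cell markers were measured for 2, 2 and 3 genes, with 0 called in each. Pecam1 rose at least 1.56-fold (1.10, adjusted p = 0.00852, and 0.052 without unstimulated replicate 1) as the single call among 6 erythroid and endothelial markers.

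Whether the response depended on genotype was tested as the difference between the responses of Nur77-KO and WT BMM, which share no arrays. Of 10785 genes 1 was called (0.00927%), Cx3cr1, the fractalkine receptor. In WT BMM it was at 8.29 ± 0.12 and fell to 4.63 ± 0.22 with IL-4, and in Nur77-KO BMM it was already at 6.13, 5.77 and 5.70 and fell to 4.65, 4.72 and 4.71. The fitted difference of the responses was 2.49 (SE 0.31, adjusted p = 0.00761). No IL-4-treated array of either genotype detected Cx3cr1, so both falls have only bounds, at least 6.84-fold in WT and at least 1.26-fold in Nur77-KO BMM. The fitted difference is close to the gap of 2.43 between the unstimulated groups and does not show that the response itself depended on genotype. An unadjusted p under 0.05 was reached by 218 genes. The SE of a difference had a median of 0.32, which limits what 3 arrays per group could detect. Eif2s3y was between 4.45 and 4.76 on all 9 WT arrays and between 8.91 and 9.68 on all Nur77-KO arrays but replicate 1 with IL-4 and replicate 1 with LPS, so this Y-linked signal and genotype cannot be told apart on the other arrays. The call of Cx3cr1 was lost when arrays were scaled to their medians (1.98, adjusted p = 1.00) or by cyclic loess (2.21, adjusted p = 0.0897).

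Over all 10785 genes the responses of both genotypes correlated with r = 0.84, given as a description across genes measured on shared slides. Of the 759 genes called in Nur77-KO BMM 752 had the same sign in WT BMM. Mrc1, detected on all arrays of these 4 groups, had close estimates (1.83 in Nur77-KO and 1.85 in WT BMM), with a 95% interval of the difference of -0.80 to 0.75. Arg1 (8.04 and 8.11) and Rasgrp1 (6.23 and 6.23) were not detected without stimulation in either genotype, so these fitted responses are not exact sizes. With IL-4 Retnla was at 10.31, 12.05 and 12.03 on the WT and at 9.75, 10.15 and 10.12 on the Nur77-KO arrays, and without stimulation 1 WT and 0 Nur77-KO arrays detected it. Its fitted difference of responses, which has no exact size for that reason, did not pass the test (adjusted p = 0.999), and without WT IL-4 replicate 1, the lowest of its group, it was called (-1.98, adjusted p = 0.0383). Without Nur77-KO IL-4 replicate 3, Adam23, a cell-surface adhesion protein, was called (-1.66, adjusted p = 0.0296) beside Cx3cr1. Without the 4 stimulated arrays that stand apart, 4 genes were called, Cx3cr1 (2.61), Retnla (-1.85), Adam23 (-1.34) and Serpinb2 (2.11). Adam23 was detected on the 3 unstimulated Nur77-KO arrays and on no other array of these 4 groups, so its fitted difference has no exact size either. Adam23 and Serpinb2 were named after their values were seen.

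**Figure D5:**
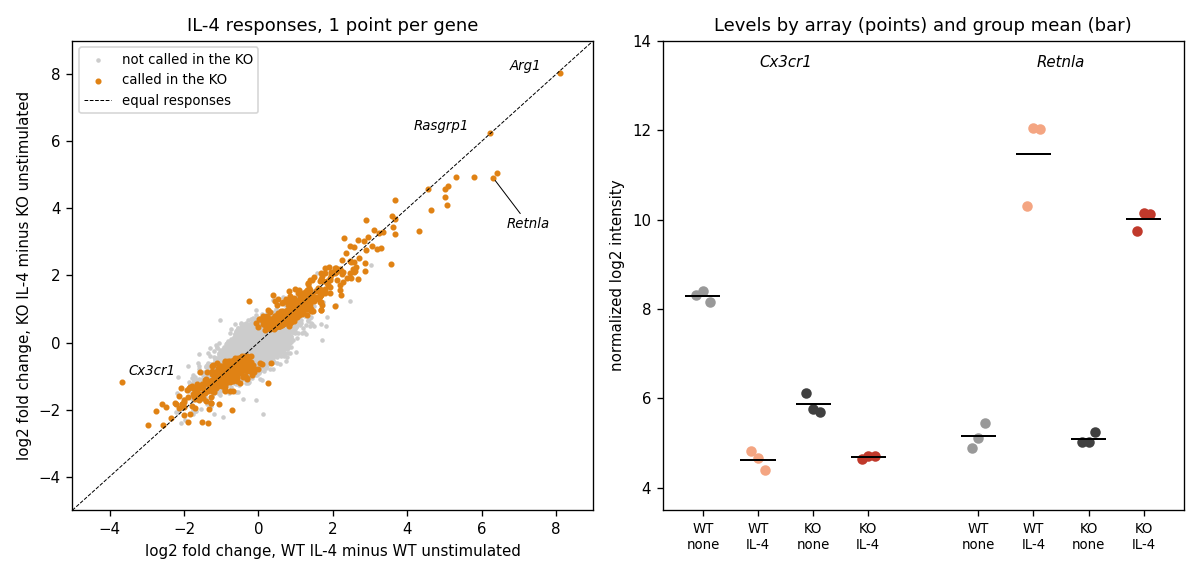
Left, the IL-4 response (log2 fold change) of each of 10785 genes in Nur77-KO BMM (y axis) against that in WT BMM (x axis), with the dashed line at equal responses and the genes called in Nur77-KO BMM in orange. Right, log2 intensity of Cx3cr1 and Retnla on each array (points) with group means (bars), where Cx3cr1 lies at 8.29 in unstimulated WT and 5.87 in unstimulated Nur77-KO BMM.

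IL-4 and LPS, the standard stimulus of inflammatory activation, were compared directly in Nur77-KO BMM. With IL-4 2957 genes were higher (27.4%) and 1558 lower (14.4%) than with LPS. Replicate 1 of each group stood apart. On LPS replicate 1 Eif2s3y was at 4.53, against 9.26 and 9.08 on LPS replicates 2 and 3. Col1a1 was at 4.66 there, against 8.30 and 8.46. The counts were 2690 and 1455 without LPS replicate 1, and 2877 and 1464 without IL-4 replicate 1. Arg1, not detected with LPS, was at least 139-fold higher (adjusted p = 5.65e-09). Prps1 was higher by 5.14 and Mgl2 by 5.02 (adjusted p = 1.75e-07 and 1.99e-06). St6gal1, a sialyltransferase, was higher by 6.32 (adjusted p = 4.7e-13) and Cnr2, the cannabinoid receptor of immune cells, at least 25.6-fold (adjusted p = 6.41e-12). For St6gal1 the responses were 0.80 to IL-4 and -5.52 to LPS, while Cnr2 read 0.52 with IL-4 and fell at least 17.9-fold with LPS. Those 2 differences lay mostly in the fall with LPS. At the other end stood Cd69, an early activation antigen (-9.23, adjusted p = 2.24e-12), Il1b (-9.14), Clec4e (-8.46) and Tnf (-8.20), and Cxcl9, not detected with IL-4, was at least 192-fold lower. The response of Il1b was 0.72 to IL-4 and 9.86 to LPS, and that of Tnf -0.59 and 7.62.

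Some genes of the IL-4 response also moved with LPS, and both responses share the unstimulated arrays, so their values are given side by side. Rasgrp1 responded by 6.23 to IL-4 and 6.65 to LPS, Il4i1 by 5.07 and 5.71 and Scimp by 4.57 and 4.50, and the direct differences between stimuli of -0.42, -0.65 and 0.07 did not pass the test (adjusted p = 0.294, 0.236 and 0.765). Cd40 responded by 3.35 and 8.11 and Socs1 by 2.38 and 2.72. Retnla and Rnase2a were not detected on any LPS array, and Egr2 read 3.15 with IL-4 and -0.89 with LPS. Tlr2 went down with IL-4 (-2.17) and up with LPS (1.47), as did Nfkbiz (-1.70 and 3.85) and Ccrl2 (-1.29 and 4.76). Slc40a1 went down with both (-2.44 and -4.89), as did Cxcr4 (-1.57 and -5.50). The direct differences for Tlr2 (-3.64), Slc40a1 (2.44) and Cxcr4 (3.93) passed the test (adjusted p = 4.22e-09, 3.79e-05 and 8.21e-10).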

How the data were processed

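RNA of WT and Nur77-KO BMM was hybridised to Illumina MouseWG-6 v2 arrays. The deposited files hold probe intensities and detection p-values from GenomeStudio (2011.1), and a table of log2 values that the authors background-corrected, quantile-normalized and transformed with limma (3.10.2) in R (2.14.0). The deposited intensity values gave the same log2 values on reprocessing with neqc to within 0.059. Quantile normalization assumes like distributions on all arrays, so a shift common to most genes would be removed. The number of arrays, 3 per group, limits the precision.

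Of 45281 probes 34885 had 1 gene symbol in the platform annotation, 18 had several and 10378 were not listed. A gene was given by its probe with the highest mean over the 6 Nur77-KO arrays with IL-4 or without stimulation, and 3830 genes had more than 1 detected probe. One linear model with the 6 group means was fitted to all 18 arrays, with moderated tests (limma 3.58.1, R 4.3.3) and Benjamini-Hochberg adjustment over 10785 genes. The fit was tried on simulated arrays with independent genes, no slide effect and no array set apart. That check does not cover such features of these data. Where no array of a group detected a probe, the fold is "at least" the value against the lowest detected signal of each array, or the probe's own if higher.

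The members and gene lists were chosen with earlier results of these data known. Genes were named as the 15 largest called changes each way without overlap, up to 4 called members of each list by size, the 5 largest called differences each way in the other comparisons, and a fixed set (Nr4a1, Nr4a2, Nr4a3, Il4ra, Stat6, Arg1, Retnla, Chil3, Mrc1 and Cx3cr1). Other list members and Npy, Eif2s3y, Col1a1 and Pou6f1 were named after their values were seen. The sources do not say whether replicate numbers pair the arrays, and the fit did not pair them. Same-numbered arrays deviated from their group means with correlations of 0.044, -0.0096 and 0.084 over genes. These values cannot decide it, since IL-4 replicate 1 stands apart and weighs on the deviations of its whole group. Alternatives were background correction, scaling, filter, probe choice, slide or replicate block, variance prior, a Y-linked covariate and each array left out. Leaving out the 4 stimulated arrays that stand apart was chosen after seeing the data. They are replicate 1 of Nur77-KO IL-4, WT IL-4 and Nur77-KO LPS, and replicate 3 of WT LPS.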

Additional observations from a re-analysis of the deposited data

Results flagged for a closer look

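The fitted IL-4 responses of Cx3cr1 differed between genotypes by 2.49 on the log2 scale (adjusted p = 0.00761 by limma). No IL-4 array of either genotype detected the gene, and the unstimulated groups, at 8.29 in WT and 5.87 in Nur77-KO BMM, differed by 2.43, so this value reads the unstimulated gap and does not show a difference in the response itself. Among 2888 detected probes that carry no single gene symbol and so stand outside the comparisons above, 97 were called in the IL-4 response of Nur77-KO BMM, 48 higher and 49 lower.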

How the results depend on the processing

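Scaling arrays to their medians lowered the counts of the IL-4 response of Nur77-KO BMM from 416 higher and 343 lower genes to 43 and 62. Slide as a fixed block gave 251 and 184, leaving out the 4 stimulated arrays that stand apart 802 and 879, and the methods' limits (unadjusted p under 0.05 and a fold of 1.4) 706 and 771. With 1 array left out the counts ran from 260 to 359 and from 167 to 299. For the genotype difference, median scaling gave 0 genes (218 had an unadjusted p under 0.05 in the fit as reported), leaving out the 4 arrays 4, the methods' limits 205 and leaving out 1 array 1 to 2. For IL-4 against LPS, median scaling gave 1230 higher and 554 lower, each probe by itself gave 2407 lower, and leaving out 1 array 2614 to 2877 and 1400 to 1483. The cause of these moves was not tested. With the replicate number as a block 405 genes rose and 350 fell, 707 of these 755 shared with the calls as reported.

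Of 100 named genes called in the IL-4 response, 100 kept their direction and 50 their call under all 21 alternatives. With at least 1 array left out 26 lost the call. The direction could not turn with 1 array left out, since the groups of each called gene did not overlap. Median scaling ended 45 of the 100 calls and slide as a fixed block 21. Of 672 list medians under alternatives 615 moved by no more than the SD of the list's median over the 3 IL-4 arrays. Replicate 1 widens that limit, as for the stromal markers, with medians of -3.59 on it and -0.30 and -0.38 on replicates 2 and 3. For such lists the count does not measure stability. Dim probes limit the folds, since values near background are compressed.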
